A study of Mus musculus with 38 samples.

Results

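The polysome-associated and non-polysome levels of 7 mouse genes of the egg coat and of sperm-egg interaction were followed from the oocyte to the second embryonic mitosis. The genes were chosen by name, as the rows whose symbol is Zp1, Zp2, Zp3, Izumo1r, Cd9, Cd81 or Astl, out of 23125 genes in the table and not by a threshold on any measured value. The study asked which mRNAs sit on polysomes in meiosis and in the first mitoses, using a sucrose gradient method made for scarce samples (SSP-profiling). Of 10 gradient fractions, the 5 lighter ones were pooled as the non-polysome (NP) sample and the 5 heavier ones as the polysome (P) sample, and each pool was sequenced. Material came from wild-type ICR mice stimulated with gonadotropin, with a minimum age of 6 weeks stated for the females that gave oocytes. The 6 stages were fully grown oocytes with an intact germinal vesicle (GV), oocytes matured in culture for 12 h to metaphase II (MII), pronuclear zygotes flushed from the oviduct after mating, zygotes arrested in mitosis (zygote M), embryos cultured to the two-cell stage and the same arrested in the second mitosis (two-cell M). Both arrested embryo groups, and neither of the other embryo groups, were held in 10 µM nocodazole, so that M-phase and the drug cannot be told apart. Oocytes were isolated with IBMX, which holds back meiotic resumption, and culture to MII was without it. GV and MII groups therefore also differ in time away from this inhibitor. The study describes cycloheximide treatment before lysis for the gradients. Each stage and fraction had 3 libraries, described as biological triplicates and lettered A, B and C (B, C and D for the zygote), which gave 12 groups and 36 libraries. An embryo or oocyte with less total RNA and a change in 1 transcript relative to the rest cannot be told apart in these values, since all are relative to the library.

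The zona pellucida is the extracellular coat of the mammalian egg, and ZP1, ZP2 and ZP3 are the glycoproteins from which the growing mouse oocyte builds it. Sperm bind this coat, cross it and then meet the egg membrane, where IZUMO1R (also called JUNO, a GPI-anchored folate receptor relative) receives the sperm protein IZUMO1 and the tetraspanins CD9 and CD81 take part in membrane fusion. Astl encodes ovastacin, the cortical granule protease that is released at fertilization and cleaves ZP2, after which further sperm no longer bind.

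The transcripts of the 3 zona genes share an unusually short 3′ end, a feature that the choice by name did not use. In the GENCODE M21 annotation (GRCm38) the 3′ untranslated region of the principal transcript measured 13 bases in Zp3, 34 bases in Zp1 and 49 bases in Zp2, against a median of 774 bases over 6323 tested genes with such a transcript. Only 1.11% of those genes had a shorter region than Zp3, 1.74% a shorter one than Zp1 and 2.64% a shorter one than Zp2. The region was longer in Izumo1r (333 bases), Cd9 (395 bases), Cd81 (560 bases) and Astl (877 bases). The cleavage and polyadenylation signals AATAAA and ATTAAA are shown in capitals in windows of 30 bases of the transcript strand for the 5 members with levels above 1 FPKM in most groups, because the poly(A) tail that the library kit primes on begins just past them:
Zp1: aggcatcagatATTAAAtggactcAATAAA
Zp2: ttggacttgcaAATAAAgagactgcagtta
Zp3: tatcccttccgcAATAAAagaagaaactca
Izumo1r: atggtaccttcAATAAAaggctaggaaact
Astl: gaaaaggtagaAATAAAgttgggtgtttgc
The stop codon, TAA in both Zp1 and Zp3, overlapped the ATTAAA of Zp1 and the AATAAA of Zp3. The windows lie in the last exon, at chr19:10914309-10914338 for Zp1, chr7:120132359-120132388 for Zp2 and chr9:14900026-14900055 for Izumo1r (all on the minus strand) and at chr5:135988595-135988624 for Zp3 and chr2:127357617-127357646 for Astl (both on the plus strand). The Zp1 and Zp3 windows run from the end of the coding sequence into the 3′ untranslated region and the other windows lie within that region. At least 1 of the signals was present in the last 60 bases of each of the 7 members and of 79.7% of the tested genes. The cytoplasmic polyadenylation motifs TTTTAT and TTTTAAT, searched on the transcript strand, were in the last 100 bases of no member's principal transcript and of 18.8% of the tested genes.

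Spacing of the lowest FPKM values of genes with a single transcript gave an approximate depth of 8491070 to 26658700 fragments per library. At these depths 1 fragment was worth 0.0284 to 0.0890 FPKM for the 1323-base Zp3 transcript and 0.0158 to 0.0495 FPKM for the 2377-base Astl transcript. Values of Zp1, Zp3 and Astl in GV and MII oocytes rested on an estimated 1564 to 23824 fragments, whereas those of Cd9 in zygote polysomes, its highest there, rested on 67.3 to 86.1. All 11 oocyte markers looked for (Gdf9, Bmp15, Ooep and others) were detected at every stage, and their summed level in polysomes ran from 6492 to 7599 FPKM in GV oocytes to 53.5 to 244 FPKM in two-cell M embryos. In two-cell M polysomes, library C held the highest level of 10 of these 11 markers, and of 5 of the 7 zona and gamete interaction genes, against 38.9% of all 7967 genes tested. Letter C of that stage also held the highest NP level of 4 of the 7 genes, against 25.2% of the genes tested. Calls on two-cell M are therefore given below with and without both libraries. Letter C was singled out in part by the members' own values. Leaving it out lowers two-cell M wherever it was high, so calls gained without it are no independent support. Among markers of other cells, 15 cumulus and granulosa genes summed to between 0.155 and 69.9 FPKM per library, with the highest sums in two-cell NP libraries. Their sums reached 24.1 FPKM in MII NP libraries, 15.8 FPKM in two-cell M polysomes and 19.3 FPKM in two-cell M NP libraries. The 8 oviduct epithelium genes summed to between 10.1 and 31.5 FPKM in two-cell polysomes and between 8.14 and 24.5 FPKM in two-cell NP libraries. The highest sum in any other group was 8.04 FPKM. The 2 of them tested, Cdh1 and Krt8, both fell on polysomes between two-cell and two-cell M, as did 28.1% of all genes. With letter C of two-cell M left out, Cdh1 kept its call and Krt8 lost it (adjusted p = 0.051), beside 29.8% of all genes. The blood gene Hba-a1 averaged 53.4 FPKM in two-cell polysomes and 129 FPKM in the two-cell NP fraction but stood at the floor of 0.01 FPKM in GV polysomes. The 4 blood genes found summed to between 24.4 and 42.5 FPKM in two-cell M polysomes and to between 0.04 and 52.6 FPKM in two-cell M NP libraries. Of 8 sperm genes found, Prm2 alone passed the minimum level for testing. The part of these RNAs in the MII, two-cell and two-cell M results was not tested.

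GV oocytes carried Zp3 and Zp1 mRNA among their most abundant messages. Zp3 averaged 348 ± 88.1 FPKM in GV polysomes (SD, n = 3), rank 34 among 16151 protein-coding genes, and Zp1 averaged 285 ± 113 FPKM, rank 41. Zp2 was far lower, at 14.7 ± 7.99 FPKM and rank 789. Astl stood between them at 92.6 ± 10.8 FPKM (rank 157), Izumo1r at 27.7 ± 13.9 FPKM (rank 491), and Cd9 at 0.387 ± 0.167 FPKM (rank 5401). Cd81 was at 0.325 ± 0.281 FPKM, with 1 library of 3 near the floor, so its order relative to Cd9 was not resolved. Levels per kilobase still depended on transcript length in this table: tested coding genes with 1 transcript of at most 1000 bases had a median of 2.499 FPKM, and those over 3000 bases a median of 0.432 FPKM. All 7 members have principal transcripts between 1228 and 2377 bases.

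**Figure D1:**
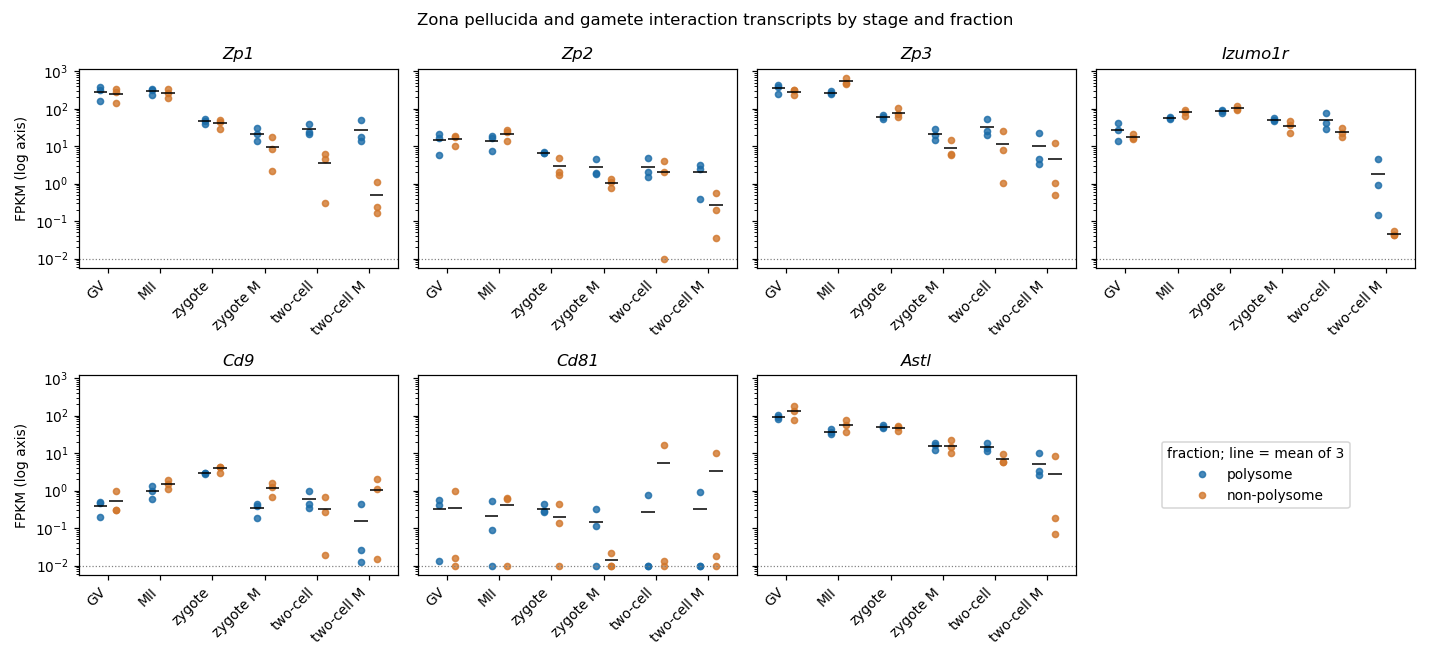
FPKM (log axis) of each gene in every library, by stage, with polysome libraries in blue, non-polysome libraries in orange and the mean of 3 libraries as a line; the dotted line is the floor of 0.01 FPKM. Zp1, Zp2, Zp3 and Astl were highest in oocytes (GV or MII), Izumo1r and Cd9 were highest in zygotes in both fractions, and Izumo1r was lowest in two-cell M embryos.

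Zp1 and Zp3 overlapped on polysomes between GV and MII oocytes, and every embryonic polysome library held less of both than any oocyte library, as held for 2.41% of all genes tested. Zp1 measured 380, 315 and 160 FPKM in GV polysomes and 333, 239 and 309 FPKM in MII polysomes, and the ranges overlapped. In polysomes of the zygote the values were 51.7, 38.0 and 47.8 FPKM, all below every oocyte library. Zp3 was likewise higher in both oocyte groups than in the zygote, with 371, 423 and 251 FPKM in GV, 295, 262 and 247 FPKM in MII and 54.6, 59.2 and 68.2 FPKM in zygote polysomes. Between MII and the zygote, Zp1 differed by −2.68 ± 0.82 and Zp3 by −2.14 ± 0.88 on the log2 FPKM scale (limma estimate ± SE), with adjusted p of 0.059 and 0.25, so neither passed the test. In this comparison 3.54% of all genes tested were called lower and 1.03% higher (adjusted p under 0.05 and more than 2-fold), and these were the 2 of 6 members with an unadjusted p under 0.05. Both genes passed when only the 2 groups compared entered the fit (adjusted p = 0.00012 for Zp1 and 0.00011 for Zp3), a fit in which 35.4% of genes were called in either direction.

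Zona mRNA was still measured on polysomes in every later library. Zp1 had 13.5, 30.7 and 21.2 FPKM in zygote M, 21.6, 38.7 and 24.4 FPKM in two-cell and 17.2, 14.0 and 49.5 FPKM in two-cell M polysomes, and all 3 ranges overlapped. Zp3 had 15.1, 28.4 and 20.1 FPKM in zygote M, 20.1, 54.5 and 25.9 FPKM in two-cell and 3.29, 4.58 and 22.8 FPKM in two-cell M polysomes, the last being low in libraries A and B and within the earlier range in library C. Zp2, the zona protein that ovastacin cleaves, had 16.6, 5.94 and 21.6 FPKM in GV polysomes and 18.2, 7.41 and 16.1 FPKM in MII. It had 6.55, 6.405 and 7.05 FPKM in the zygote and 4.75, 1.47 and 2.11 FPKM in the two-cell embryo. Its GV libraries spread over more than the distance to the zygote, so that GV and zygote overlapped. All zygote values lay below all MII values, as did those of 30.9% of all genes. All two-cell values lay below all GV values, as did those of 31.3% of all genes. Zp2 did not show a stage effect across the 6 polysome groups (moderated F-test, adjusted p = 0.13). The effect passed the test for Zp1 (adjusted p = 0.00012), Zp3 (1.6e-05), Izumo1r (2.2e-08), Cd9 (0.013) and Astl (0.0020), that is, for 5 of the 6 members tested, where 62.9% of all genes passed. Fewer members passed with letter C of two-cell M left out, and that count is given with the processing. Cd81 was left out of every test because its geometric mean was under 0.1 FPKM.

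Comparison of interphase oocytes with interphase embryos gave 3 lower members in polysomes. Two-cell embryos had less Zp1 (log2 difference −3.29 ± 0.82, adjusted p = 0.0058), Zp3 (−3.48 ± 0.88, adjusted p = 0.0066) and Astl (−2.71 ± 0.91, adjusted p = 0.039) than GV oocytes, and 12.3% of all genes tested were called lower. Against the median of all genes, which was itself at −0.85, the differences came to −2.44, −2.63 and −1.86. The call on Astl was lost with any 1 of the 6 libraries left out, with adjusted p up to 0.11, and also without a minimum level (adjusted p = 0.063) and with equal FPKM sums (adjusted p = 0.052), whereas those on Zp1 and Zp3 were kept in each case. No member was called between GV oocytes and zygotes in polysomes, where 1.73% of genes were called higher and 3.88% lower, and the lowest adjusted p was 0.066, for Zp1 (4 of 6 members had an unadjusted p under 0.05). From zygote M to two-cell polysomes no member was called and none had an unadjusted p under 0.05, with 3.31% of genes called higher and 2.87% lower.

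Zygote M polysomes held less Zp1 (−3.82 ± 0.82, adjusted p = 0.0018) and Zp3 (−3.71 ± 0.88, adjusted p = 0.0045) than MII polysomes, with 8.95% of genes called lower. In two-cell M against MII polysomes all 6 members tested were lower, from −3.08 ± 0.91 for Astl (adjusted p = 0.0059) to −6.08 ± 0.68 for Izumo1r (adjusted p = 3.7e-08). This comparison called 45.2% of all genes lower and had a median over all genes of −2.64. Relative to that median Astl was at −0.44, Zp2 at −0.53, Zp1 at −1.03, Cd9 at −1.50, Zp3 at −2.61 and Izumo1r at −3.43. Two-cell M polysome libraries B and C held under 1 estimated fragment of Cd9 each, so the size of its difference depends on the 0.01 FPKM offset. Cd9 lost its call without two-cell M library C (adjusted p = 0.072), with 1 FPKM added (−0.77), under quantile normalization (−0.52, adjusted p = 0.68) and with only the groups compared (adjusted p = 0.052). Zp2 lost its call in 4 of the 6 fits with 1 library left out, without a minimum level (adjusted p = 0.071) and under quantile normalization (−2.00, adjusted p = 0.12). With letter C of two-cell M left out in both fractions, Zp1 (−4.23), Zp3 (−6.11), Izumo1r (−7.28), Astl (−3.67) and Zp2 (−3.55, adjusted p = 0.042) were called, beside 3715 of 7967 genes called lower.

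**Figure D2:**
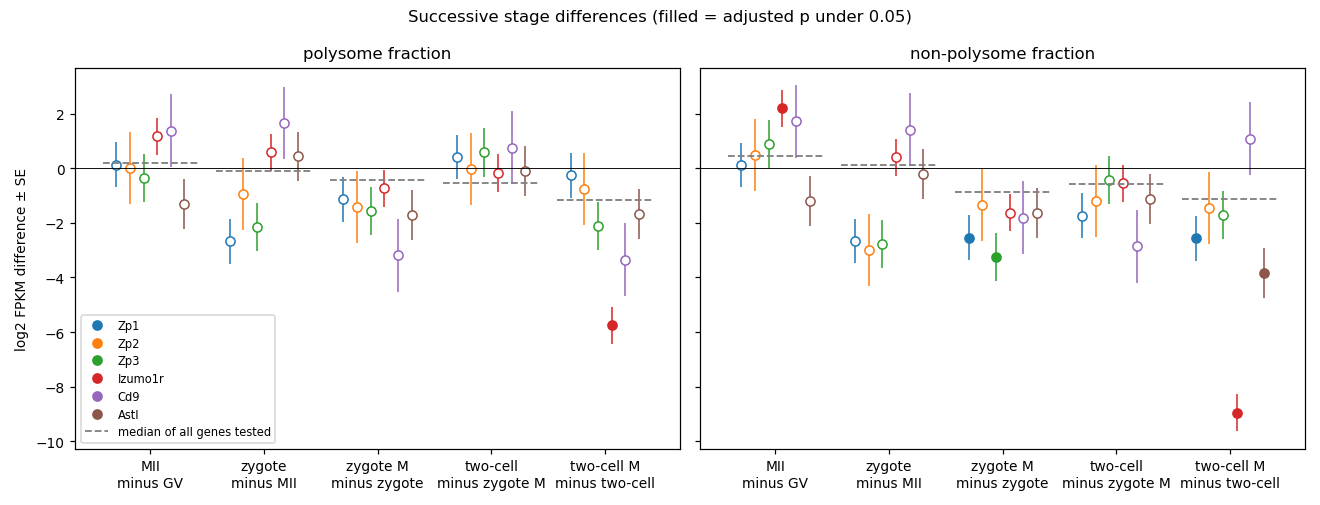
Log2 FPKM difference (± SE from limma) between successive stages for the 6 members tested, in polysomes (left) and in the non-polysome fraction (right); filled symbols have an adjusted p under 0.05 and dashed lines give the median of all 7967 genes. In polysomes the only filled symbol is Izumo1r at two-cell M minus two-cell, at −5.75, and in the non-polysome fraction there are 6 filled symbols.

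The NP fraction of oocytes also carried the zona messages at high levels. Zp3 averaged 287 ± 46.1 FPKM in GV and 536 ± 121 FPKM in MII, with no overlap (310, 234 and 317 against 460, 676 and 473 FPKM; 29.9% of all genes were apart in this direction), but the difference of 0.89 ± 0.88 did not pass the test (adjusted p = 0.54). Zygote values were 70.9, 61.5 and 102 FPKM, and zygote M values 5.70, 14.3 and 6.32 FPKM. The step from zygote to zygote M passed the test for Zp3 (−3.25 ± 0.88, adjusted p = 0.017) and for Zp1 (−2.55 ± 0.82, adjusted p = 0.045), in a comparison that called 9.36% of genes lower. Zp1 stood at 43.9, 28.4 and 51.5 FPKM in the zygote and at 2.21, 8.36 and 17.4 FPKM in zygote M, all zygote M libraries being lower, as for 28.1% of all genes. With the replicate letter as a block, neither gene passed (adjusted p = 0.12 for Zp1 and 0.054 for Zp3), and with the 6 libraries left out in turn Zp1 failed 5 times and Zp3 2 times. No member was called from MII to the zygote (1.33% of genes called higher and 1.95% lower, 3 of 6 members at an unadjusted p under 0.05) or from zygote M to two-cell (9.82% higher and 13.1% lower, 2 of 6 members).

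Two-cell embryos had 4 members lower than GV oocytes in the NP fraction, where 19.6% of all genes tested were called lower. These were Zp1 (−6.84 ± 0.82, adjusted p = 3.8e-07), Zp3 (−5.58 ± 0.88, adjusted p = 2.1e-05), Zp2 (−5.08 ± 1.32, adjusted p = 0.0044) and Astl (−4.19 ± 0.91, adjusted p = 0.00089). The two-cell libraries varied widely: Zp1 read 6.17, 0.308 and 4.52 FPKM, Zp3 read 7.95, 1.06 and 24.9 FPKM, and Zp2 was at the floor in library A against 4.15 and 2.06 FPKM in the other two. Zp2 was not called without library A (adjusted p = 0.060). Because that library stood at the floor, the size of the Zp2 difference depends on the 0.01 FPKM offset in the table. In zygote M against MII the 3 zona genes were lower (Zp1 −5.21 ± 0.82, Zp2 −4.34 ± 1.32 and Zp3 −6.04 ± 0.88), with 16.7% of genes called lower; the call on Zp2 was kept in 3 of 6 fits with 1 library left out. In two-cell M against MII 5 of the 6 members were lower, all but Cd9, with 52.1% of genes called lower and a median over all genes of −3.39. The same 5 were called lower when letter C of two-cell M was left out, and Cd9 was not (adjusted p = 0.065). That fit called 3967 of 7967 genes lower. Zygotes held less Zp1 than GV oocytes (−2.55 ± 0.82, adjusted p = 0.036), a call lost without any 1 of the 6 libraries, in a comparison with 2.76% of genes called lower.

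Izumo1r was highest in the zygote and fell in the second mitosis. Its polysome values were 27.0, 41.9 and 14.1 FPKM in GV, 60.7, 55.2 and 54.7 FPKM in MII and 75.5, 94.5 and 87.1 FPKM in the zygote, and no library of one stage overlapped the next. Neither step was called, and 27.3% of all genes were apart and higher from GV to MII and 25.3% from MII to the zygote. Zygote M polysomes had 50.1, 56.1 and 48.4 FPKM and two-cell polysomes 40.6, 79.1 and 29.2 FPKM, which overlapped each other. In two-cell M polysomes it fell to 0.143, 0.936 and 4.45 FPKM, below every library of the other stages (28.4% of all genes had two-cell M below two-cell without overlap). The fall between two-cell and two-cell M was −5.75 ± 0.68 (adjusted p = 2.6e-07), the only member called in that step, where 28.1% of all genes were called lower, 8.13% higher, and the median stood at −1.17. It was called in each of the 8 alternative settings, with log2 differences between −6.07 and −4.34, and with each of the 6 libraries left out. Without letter C of two-cell M in both fractions it was −6.95, and Zp3 (−2.97, adjusted p = 0.0022) and Astl (−2.27, adjusted p = 0.00027) were called as well. In that fit 29.8% of all genes were called lower. Library C held the highest two-cell M polysome value of each of these genes, so the added calls follow in part from leaving it out.

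In the NP fraction Izumo1r rose between GV and MII. It measured 15.5, 20.9 and 16.1 FPKM in GV and 64.3, 92.7 and 83.1 FPKM in MII, a difference of 2.19 ± 0.68 (adjusted p = 0.025) in a step that called 13.5% of all genes higher. The call was lost with 5 of the 6 libraries left out in turn, with adjusted p up to 0.084. Zygote NP libraries reached 94.8, 98.4 and 121 FPKM, 2.58 ± 0.68 above GV (adjusted p = 0.010, with 11.2% of genes called higher), and this call was kept in each such fit. Two-cell NP libraries held 29.96, 22.4 and 18.1 FPKM, and two-cell M NP libraries 0.0552, 0.0425 and 0.0422 FPKM, which is under 1 estimated fragment in each. Against a floor of 3 fragments per library the two-cell M level was at least 117-fold lower. The fitted difference of −8.96 ± 0.68 (adjusted p = 2.4e-11) therefore depends on the offset of 0.01 FPKM in the table, and came to −4.52 with 1 FPKM added. In that step 28% of genes were called lower, and Astl (−3.84 ± 0.91, adjusted p = 0.0015) and Zp1 (−2.56 ± 0.82, adjusted p = 0.016) were called too. Astl rested on two-cell values of 9.24, 5.63 and 5.91 FPKM against two-cell M values of 0.0703, 0.183 and 8.12 FPKM, of which library C lay inside the two-cell range. The call on Zp1 was lost in 4 of the 6 fits with 1 library left out, and under 1 FPKM added (−1.37), quantile normalization (−0.59, adjusted p = 0.55) and only the groups compared (adjusted p = 0.37). That on Astl was kept with each library left out and lost under quantile normalization (−1.49, adjusted p = 0.055) and only the groups compared (adjusted p = 0.29). Without letter C of two-cell M, Zp1 (−3.38), Zp3 (−3.06), Izumo1r (−8.89) and Astl (−5.89) were called, beside 2112 of 7967 genes called lower.

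Astl, whose protease is stored before fertilization, was highest in GV oocytes. Polysome values were 104, 92.3 and 82.0 FPKM in GV, 45.2, 31.8 and 35.7 FPKM in MII and 55.7, 48.7 and 46.3 FPKM in the zygote. GV lay above MII in every library, as for 20.2% of all genes, but the difference of −1.31 ± 0.91 was not called (adjusted p = 0.49); no member was called in this step or had an unadjusted p under 0.05, and 3.36% of genes were called higher and 2.75% lower. Fitted on GV and MII polysomes alone, Astl had an adjusted p of 0.011, in a fit that called 27.1% of all genes in either direction. Zygote M polysomes had 12.01, 18.0 and 16.1 FPKM, two-cell polysomes 13.9, 18.3 and 11.04 FPKM and two-cell M polysomes 3.25, 2.62 and 9.90 FPKM. Zygote M and two-cell overlapped. Every zygote M library lay below the MII and zygote libraries, and every two-cell M library lay below the two-cell libraries. Zygote M lay apart and lower for 36.4% of all genes against MII and for 37.2% against the zygote. Two-cell M lay apart and lower for 28.4% of all genes against two-cell.

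Cd9 was present at a low level and was highest in the zygote. Polysome values were 0.461, 0.195 and 0.504 FPKM in GV, 0.946, 0.611 and 1.35 FPKM in MII and 2.98, 2.69 and 3.02 FPKM in the zygote, and the groups did not overlap, as for the 27.3% and 25.3% of all genes given above for these steps. In zygote M polysomes Cd9 was back at 0.432, 0.187 and 0.397 FPKM, below all zygote libraries, as for 37.2% of all genes. None of these steps was called, the difference between zygote M and zygote being −3.19 ± 1.33 (adjusted p = 0.20), in a step that called no member, 3.24% of genes higher and 2.51% lower; Cd9 alone had an unadjusted p under 0.05. Fitted on those 2 groups alone it had an adjusted p of 0.0019, in a fit that called 33.1% of all genes in either direction. NP values gave the same order up to the zygote, with means of 0.518, 1.48 and 3.89 FPKM in GV, MII and zygote. Two-cell M libraries disagreed with each other in both fractions, with 0.430, 0.0261 and 0.0126 FPKM in polysomes and 0.0147, 2.04 and 1.07 FPKM in the NP fraction.

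Cd81 was near the floor. Of its 18 polysome values the highest was 0.922 FPKM, in two-cell M library C, and the stages overlapped throughout. Among NP libraries, two-cell B had 16.5 FPKM and two-cell M A had 9.99 FPKM, while the other 4 libraries of these groups were at or below 0.0178 FPKM. A mean over such groups describes no typical library, and no stage difference of Cd81 is given. The strand setting of the counting is not given in the sources used here, and exons of Cd9 and Cd81 overlap those of antisense genes (Gm26728 and R74862), whose reads cannot be told apart from theirs. Gm26728 itself had a geometric mean of 0.0113 FPKM, near the floor. No exon of another gene overlaps those of the other 5 members.

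Zp1 was higher in polysomes than in the NP fraction in both two-cell groups. No member was called between the fractions at GV, MII, zygote or zygote M, and none had an unadjusted p under 0.05 there. At MII 0.0502% of all genes were called higher in polysomes and 0.703% lower, and at the zygote 0.0377% and 1.34%. At GV, 2.61% of genes were called higher in polysomes and 2.35% lower, and at zygote M 1.43% and 0.49%. At the two-cell stage Zp1 was at 21.6, 38.7 and 24.4 FPKM in polysomes and at 6.17, 0.308 and 4.52 FPKM in the NP fraction, with no overlap, as for 14% of all genes. The difference of 3.74 ± 0.82 was called (adjusted p = 0.0025), as was 9.69% of all genes in this direction, and the median over all genes was 0.28. At two-cell M the polysome values of 17.2, 14.0 and 49.5 FPKM stood against 0.165, 0.233 and 1.09 FPKM, a difference of 6.04 ± 0.82 (adjusted p = 5.2e-06). Izumo1r (4.19 ± 0.68, adjusted p = 7.0e-05) and Astl (3.22 ± 0.91, adjusted p = 0.016) were also higher in two-cell M polysomes, where 9.7% of genes were called higher; the call on Astl was lost in 3 of 6 fits with 1 library left out. The NP level of Izumo1r, under 1 estimated fragment in each library, makes the size of its difference depend on the 0.01 FPKM offset, and polysome library A (0.143 FPKM) lay below the worth of 3 fragments in NP library A (0.190 FPKM). With 1 FPKM added the differences were 1.13 for Izumo1r and 1.29 for Astl, and neither was called. Without letter C of two-cell M in both fractions Zp1 (6.31), Izumo1r (2.92), Astl (4.69) and Zp3 (2.45, adjusted p = 0.040) were called at two-cell M, beside 634 of 7967 genes called higher. Fits on only the 2 groups compared called none of these (adjusted p = 0.13 for Zp1 at two-cell and 0.089 at two-cell M), and such fits called 6.89% of all genes at two-cell and 0.238% at two-cell M. With libraries of 1 stage and letter taken as 1 gradient and fitted as a block, the same members were called and, at two-cell, Zp3 as well (2.36, adjusted p = 0.038), where 16% of all genes were called in either direction.

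**Figure D3:**
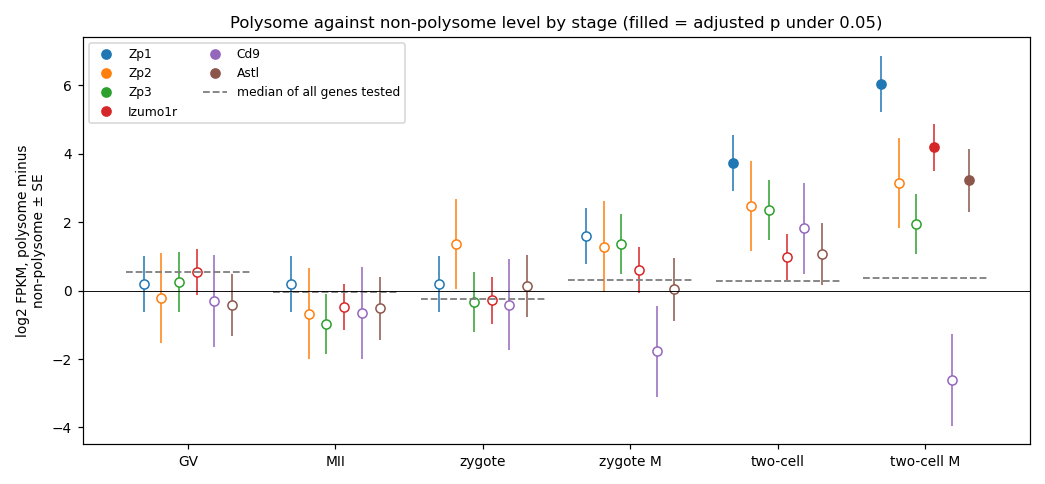
Log2 FPKM in polysomes minus the non-polysome fraction (± SE from limma) at each stage for the 6 members tested, with filled symbols for an adjusted p under 0.05 and dashed lines for the median of all genes. No symbol is filled from GV to zygote M, and the filled ones are Zp1 at two-cell (3.74) and Zp1, Izumo1r and Astl at two-cell M (6.04, 4.19 and 3.22), all without a block for the gradient.

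A direct test asked whether a step changed polysomes and the NP fraction by different amounts. Of 6 members and 5 steps, it passed once, for Izumo1r between two-cell and two-cell M, where the fall in polysomes was smaller by 3.20 ± 0.96 (adjusted p = 0.044) and 3.2% of all genes were called in this direction. The size of this difference depends on the 0.01 FPKM offset, since each two-cell M NP library held under 1 estimated fragment of Izumo1r. In the 4 earlier steps no member had an unadjusted p under 0.05, and 0.163%, 0.0377%, 0.289% and 2.76% of all genes were called in either direction. The call was lost in 7 of 9 alternative settings and in 8 of the 12 fits with 1 library left out, and under quantile normalization the difference was −0.27. Without letter C of two-cell M the call passed to Astl (3.62, adjusted p = 0.00036), beside 354 of 7967 genes called in this direction. For Zp1 the same contrast gave 2.30 ± 1.16 (adjusted p = 0.28).

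Ratios between members within a library do not depend on how libraries are scaled. They were not tested, and no share of other gene pairs with ranges apart stands beside them. Zp1 and Zp3 were nearly equal in polysomes from GV to two-cell, with every ratio between 0.639 and 1.25. In two-cell M polysomes the ratio was 2.17 to 5.22, above all other polysome libraries. Libraries A and B alone spanned 3.07 to 5.22. In the NP fraction Zp1 was at 0.610 to 1.04 of Zp3 in GV, 0.418 to 0.540 in MII, 0.462 to 0.618 in the zygote, 0.388 to 2.75 in zygote M, 0.181 to 0.775 in two-cell and 0.0909 to 0.472 in two-cell M (0.160 to 0.472 without library C), the last 2 ranges overlapping, and the two-cell M values of Zp1 rested on 3.71 to 36.2 estimated fragments. Astl had 0.121 to 0.153 of the Zp3 level in MII polysomes and 0.679 to 1.02 in the zygote, with no overlap, and the NP fraction had 0.0780 to 0.120 and 0.478 to 0.726. Izumo1r passed Zp3 between these stages in both fractions, from 0.206 to 0.221 of Zp3 in MII polysomes to 1.28 to 1.60 in the zygote and 1.98 to 3.33 in zygote M, and was back at 0.0435 to 0.205 in two-cell M.

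**Figure D4:**
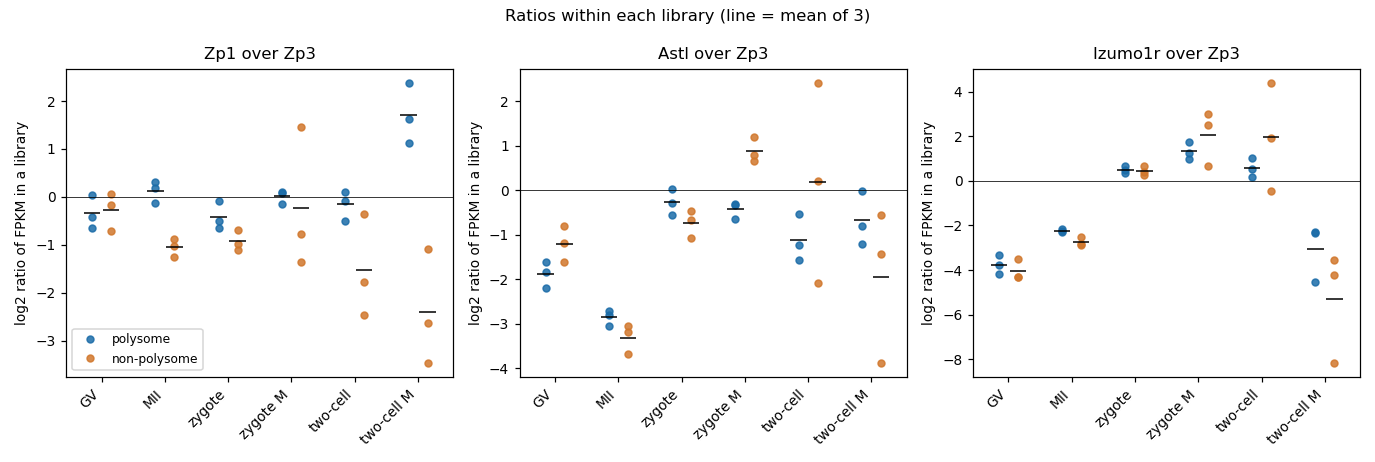
Log2 ratio of the FPKM of Zp1, Astl and Izumo1r to that of Zp3 in each library, by stage, with polysome libraries in blue, non-polysome libraries in orange and the mean of 3 as a line. Zp1 over Zp3 in polysomes is near 0 in every stage but two-cell M (mean 1.71), and Izumo1r over Zp3 is above 0 in polysomes of the zygote, zygote M and two-cell groups only.

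Over the 12 group means of log2 FPKM each zona gene, among the 7 members, was most like another zona gene. Pearson's r was 0.98 between Zp1 and Zp2, 0.97 between Zp2 and Zp3 and 0.95 between Zp1 and Zp3, and 0.89 to 0.90 between each of them and Astl. It was 0.63 to 0.64 between the zona genes and Izumo1r and 0.31 to 0.46 between them and Cd9. These are descriptions over groups that share libraries, and depth and the shared fall in two-cell M enter all of them. Among 1106 other coding genes whose mean reached 10 FPKM, the 3 most like Zp1 were Fbxw16 (r = 0.96), Tuba3a (0.94) and Tle6 (0.94), those most like Zp2 were Fbxw16 (0.96), Fbxw18 (0.95) and Tuba3a (0.95), and those most like Zp3 were Mos (0.96), Fbxw18 (0.95) and Gm813 (0.95). The median r of all candidates was 0.43, 0.46 and 0.47. For Astl the nearest were Fbxw14 (0.99), Fbxw28 (0.98) and Ccdc69 (0.97), for Izumo1r Fzr1, Mrps25 and C87977 (each 0.99, where 164 candidates were over 0.9, against 40 for Astl, 19 for Zp3, 10 for Zp2 and 8 for Zp1), for Cd9 Ogfod2, Tacc3 and Sdhd (0.87 to 0.89) and for Cd81 Gm10184, Gpank1 and Rps4x (0.69 to 0.77, over means that include the uneven two-cell and two-cell M NP groups). The names depend on the measure, since the top 3 by Spearman's rho shared 0 of 3 with these for Zp3 and Izumo1r, 2 of 3 for Zp2 and 1 of 3 for each of the other members. Fbxw16, Fbxw18, Fbxw14 and Fbxw28 belong to a family of similar genes between which reads may have been split.

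Genes around the egg coat and membrane were listed by role and are described here in polysomes. Of 13 tested egg surface and tetraspanin genes, 7 fell and 3 rose between two-cell and two-cell M polysomes, a step in which 28.1% of all genes were called lower and 8.13% higher. Tspan31 averaged 18.6 ± 13.7 FPKM in two-cell and 2.51 ± 4.26 FPKM in two-cell M polysomes (adjusted p = 0.0043), while Cd63, a tetraspanin of late endosomes, was at 1.57 ± 0.403 and 21.8 ± 5.20 FPKM (adjusted p = 0.0057). All 4 tested genes of secreted oocyte and coat proteins were lower in that step (28.1% of all genes), among them Oosp1 (9.71 ± 1.83 against 1.55 ± 1.91 FPKM, adjusted p = 0.0018). Of 9 tested egg activation genes 6 were lower (28.1% of all genes), Wee2, a kinase needed for metaphase II exit, at 14.8 ± 9.43 against 1.12 ± 1.09 FPKM (adjusted p = 6.3e-05). Between GV and MII polysomes Orai1, a plasma membrane calcium channel, was the 1 of 9 called in this list (3.36% of all genes were called higher), from 4.61 ± 2.13 to 58.4 ± 13.6 FPKM (adjusted p = 2.1e-06).

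Cortical granule and zona hardening genes included Plat, the tissue plasminogen activator, which with Fetub made up the 2 of 10 called lower in two-cell M polysomes (28.1% of all genes). Fetub encodes fetuin-B, an inhibitor of ovastacin, and averaged 1.86 ± 0.725 FPKM in two-cell and 0.251 ± 0.207 FPKM in two-cell M polysomes (adjusted p = 0.023). Of 4 tested transcription factors of zona genes, Nobox and Lhx8 were lower in that step (28.1% of all genes), Nobox at 51.9 ± 3.91 against 7.82 ± 5.23 FPKM (adjusted p = 0.0016). Of 14 tested protein maturation genes of the secretory pathway, none was lower and P4hb, protein disulfide isomerase, was higher (8.13% of all genes), at 0.608 ± 0.152 against 18.2 ± 7.30 FPKM (adjusted p = 0.00046). The median log2 difference in this step was −2.14 for the egg surface list, −3.99 for the coat proteins, −4.29 for egg activation, −1.38 for cortical granules, −3.07 for the transcription factors and 0.54 for protein maturation, against −1.17 over all genes. With letter C of two-cell M left out, an alternative added after seeing the data, the counts of lower genes were 6, 4, 7, 3, 2 and 2 in the same order of lists, those of higher genes 2 in the egg surface list and 1 in protein maturation, and 29.8% of all genes were lower and 7.72% higher. Of the genes named for this step Tspan31, Cd63, Oosp1, Wee2, Plat, Fetub, Nobox and P4hb were called in that fit and Lhx8 was not (adjusted p = 0.11). The 2 protein maturation genes called lower there were Furin (−4.03, adjusted p = 0.0067) and Mgat1 (−3.50, adjusted p = 0.029), named after their values were seen. Between GV and MII 2 of the 14 protein maturation genes were lower (2.75% of all genes), Sec61b from 20.0 ± 3.20 to 4.10 ± 0.723 FPKM (adjusted p = 0.0014) being the more abundant.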

How the data were processed

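The authors profiled polysome (P) and non-polysome (NP) pools of 6 stages by Smart-seq v4, which primes on poly(A) tails, with Nextera XT libraries. Per the labels, reads were processed with Trim Galore 0.4.1, STAR 2.5.3a and Partek on GRCm38, and the authors deposited 1 table of normalized FPKM for 23125 genes. Every library has a smallest value of 0.01 FPKM, an offset in the table. Of 38 labelled samples, 2 zygote samples have no column and were not analysed here. Libraries were grouped by the stage, fraction and letter in their titles.

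Depth was estimated from genes with 1 annotated transcript (7034), whose FPKM times length fall on multiples of the worth of 1 fragment. Between 39.6% and 53.8% of low values came out whole within 2%, so fragment numbers are approximate and cover counting error only.

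The 7967 genes whose geometric mean reached 0.1 FPKM were analysed on the log2 scale, without a further offset, in limma 3.58.1 (R 4.3.3) as 12 group means with a trended empirical Bayes prior. A gene was called at a Benjamini-Hochberg adjusted p under 0.05 and a fold beyond 2. Tests are two-sided, and 6 of the 7 members were tested. An exact permutation test of 3 against 3 libraries cannot go below p = 0.1 and was not used. The share of all genes called stands beside the first count of each comparison in the report. Tested on simulated data for MII minus GV over 7967 genes, 19 of 100 planted changes of 3 log2 units and 64 of 100 of 6 were called, with 0 in the wrong direction.

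The members and lists were chosen with earlier results of these data known. Named genes are all members, list genes called in 3 polysome steps (MII minus GV, two-cell minus zygote M, two-cell M minus two-cell; at most 3 a list, by mean FPKM; a subset is given), and the 3 genes most like each member. Alternatives were 0.1 or 1 FPKM added, no minimum level, a minimum mean of 1 FPKM, quantile normalization, equal FPKM sums, only the groups compared, the letter or gradient as a block, each library left out, and, added after seeing the data, two-cell M letter C left out in both fractions. Transcripts, coordinates and sequences come from GENCODE M21 (GRCm38). Figures used Python 3.11.15, pandas 2.3.3, numpy 2.4.6 and matplotlib 3.10.9.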

Additional observations from a re-analysis of the deposited data

Results flagged for a closer look

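The change of Izumo1r between two-cell and two-cell M embryos differed between the fractions by 3.20 on the log2 scale (limma interaction contrast, adjusted p = 0.044), with a smaller fall in polysomes than in the NP fraction. It was picked out because the difference between 2 groups under the same contrast passed its own test. The NP libraries of two-cell M held under 1 estimated fragment of Izumo1r each, and the difference was −0.27 under quantile normalization (adjusted p = 0.89). With the gradient as a block the difference stayed at 3.20 but was not called (adjusted p = 0.068). A single-sample check for values far from their group needs at least 4 samples and could not be made with 3 libraries per group.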

How the results depend on the processing

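Counts here are members called of 6. The number of all genes called also moved with the setting, so a changed count is by itself no result about the members. For the members' single comparisons, fits with 1 library left out gave the same call 1157 times, lost one 48 times and added one 19 times; other settings gave 1333, 33 and 91, with 1 reversal. The cause of these differences was not tested. With 0.1 FPKM added, the polysome counts became 1 for zygote minus MII and for zygote M minus zygote and 2 for zygote minus GV (each 0 as reported), and NP zygote minus MII became 2 (from 0). These comparisons called 613, 704, 888 and 426 of 7967 genes in either direction, in the same order. With 1 FPKM added, the member counts were 1 for MII minus GV, 3 for zygote minus MII, 2 for zygote M minus zygote, 3 for two-cell M minus two-cell and 4 for zygote minus GV in polysomes, 3, 5, 6 and 5 for zygote minus MII, zygote M minus zygote, zygote minus GV and zygote M minus MII in the NP fraction, and 2 and 1 between fractions at two-cell and two-cell M. All genes called, in the same order, were 1604, 980, 900, 2140 and 1304 in polysomes, 781, 870, 1661 and 1866 in the NP fraction, and 1252 and 1126 between fractions. Without a minimum level, NP zygote M minus zygote and zygote minus GV had 1 each. Smaller moves in polysomes were 3 to 2 (no minimum level, equal FPKM sums) or 4 (1 FPKM added, quantile normalization, only the groups compared) for two-cell minus GV, 6 to 5 (1 FPKM added, no minimum level, only the groups compared, letter C of two-cell M left out) or 4 (quantile normalization) for two-cell M minus MII, 2 to 3 (1 FPKM added) for zygote M minus MII, and 5 to 6 (0.1 or 1 FPKM added, only the groups compared) or 4 (letter C left out) for the stage effect. Those in the NP fraction were 3 to 2 (1 FPKM added) or 4 (equal FPKM sums, letter C left out) for two-cell M minus two-cell, 2 to 3 for zygote minus GV (0.1 FPKM added) and zygote M minus zygote (quantile normalization, only the groups compared) and 4 to 3 (only the groups compared) for two-cell minus GV; between fractions at two-cell M, 3 became 4 with letter C left out. With a mean of at least 1 FPKM required, polysome zygote minus MII had 1 and two-cell M minus two-cell 2. With quantile normalization, which moved the median of all genes in polysome two-cell M minus two-cell from −1.17 to 0.22, polysome counts were 1, 2, 3 and 4 for zygote minus MII, zygote M minus zygote, two-cell M minus two-cell and zygote minus GV, NP counts 2, 2, 1 and 4 for MII minus GV, zygote minus MII, two-cell M minus two-cell and zygote minus GV, and those between fractions 4 at two-cell and 1 at two-cell M. All genes called, in the same order, were 923, 1162, 2972 and 1410 in polysomes, 2121, 541, 2021 and 1998 in the NP fraction, and 1281 and 626 between fractions. With equal FPKM sums, polysome two-cell M minus two-cell had 3, NP zygote minus GV 1, and the fractions 2 at two-cell and 5 at two-cell M. These comparisons called 3020, 1256, 1386 and 1550 of 7967 genes in either direction, in the same order. With only the groups compared, polysome counts were 1, 3, 5, 4 and 4 (MII minus GV, zygote minus MII, zygote M minus zygote, zygote minus GV, zygote M minus MII), NP counts 4, 1, 6 and 5 (zygote minus MII, two-cell M minus two-cell, zygote minus GV, zygote M minus MII), and those between fractions 1, 0 and 0 (zygote, two-cell, two-cell M). Of 7967 genes these fits called, in the same order, 2162, 2817, 2635, 2466 and 3235 in polysomes. They called 1280, 875, 1695 and 1550 in the NP fraction, and 1605, 549 and 19 between fractions. The difference of steps between fractions at two-cell M minus two-cell went from 1 to 0 under 0.1 and 1 FPKM added, no minimum, quantile normalization (Izumo1r −0.27), only the groups compared and both blocks. Without letter C of two-cell M in both fractions, polysome two-cell M minus two-cell had 3, and 2377 of 7967 genes were called lower. This setting was chosen after seeing the data and in part by the members' own values. With each library left out, counts ran from 0 to 1 for NP two-cell minus zygote M and for NP MII minus GV, from 1 to 1 for NP zygote minus GV, from 0 to 2 for NP zygote M minus zygote and for the difference of steps, and from 1 to 2 for polysome two-cell M minus two-cell and between fractions at two-cell.

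The main fit did not pair the fractions by letter, although the 2 pools come from the same gradient method. Deviations from group means correlated at a mean r of 0.076 between the fractions of 1 letter and stage (over 0.1 in 6 of 18 pairs). Between fractions of 1 stage and different letters the mean r was −0.037 (over 0.1 in 1 of 36 pairs). Of 18 polysome libraries, 12 were closest to the NP library of their own letter. Fractions of 1 letter were thus somewhat more alike, so the fits with a block are to be read beside the main fit. With the letter as a replicate block the count for NP zygote M minus zygote went from 2 to 0, and with the gradient as a replicate block that between fractions at two-cell went from 1 to 2 (Zp3 added); the other counts within and between fractions kept their value, apart from the difference of steps given above. Levels under about 3 fragments, such as Izumo1r in the NP fraction of two-cell M, cannot be told from absence at these depths.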
